A study of Mus musculus with 2 samples.

Results

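Lysozymes and neutrophil granule proteins are described here by 10 genes, Lyz1, Lyz2, S100a8, S100a9, Retnlg, Ngp, Camp, Ltf, Lcn2 and Elane, in the lung of newborn mice. The genes were chosen by symbol, and each symbol matched 1 row in the gene tables of both libraries, out of 43346 mouse genes in all. Total RNA was sequenced from the lungs of 2 pups of the strain B6NCrl on the day of birth (age 0 days), each library from the 2 lungs of 1 pup. The libraries, from pup 1 and pup 3, form a single group with no treatment, and no condition can be compared. The labels give both pups pregnancy 1 and a shared donor identifier, and the sex was not collected, so that n = 2 rests on the pup numbers alone. The libraries were made from 10 ng of RNA of more than 200 nt, prepared with the mirVana kit, with spike-in RNA and a SMARTer low-input manual named in the labels.

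Lysozyme cuts the peptidoglycan of bacterial walls, and the mouse genome holds a pair of genes for it: Lyz2 is the lysozyme of macrophages, neutrophils and alveolar type 2 cells, and Lyz1 is best known from the Paneth cells of the gut. Neutrophils fill their granules in stages while they mature, with elastase and other proteases of primary granules made first by promyelocytes, lactoferrin, cathelicidin and lipocalin of specific granules next, and S100 proteins and resistin-like gamma abundant in late cells. A cell that has left the bone marrow has largely stopped making primary granule transcripts, so early and late genes are set side by side here. Levels of different genes are not a scale of maturity, and how far the neutrophil RNA had matured was not tested.

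Both lysozyme genes were among the most abundant transcripts of the newborn lung, and all granule genes but Elane were detected at 1 TPM or more in both pups. Among the genes chosen here, transcripts of late neutrophils (S100a8, S100a9, Retnlg) stood above those of specific granules except Lcn2. Elane, the primary granule gene, was close to 0. In longer lists the specific granule gene Pglyrp1 also stood above Retnlg in both pups. There the mature list lay below the specific list in mean log2(TPM + 1), with differences of -0.78 in pup 1 and -0.85 in pup 3. Summed TPM reversed that difference. The 4 chosen specific granule genes had lower scaled counts in pup 1 than in pup 3 and both lysozymes had higher ones, by less than 2-fold for each. The library of pup 3 stood apart in transcripts of milk proteins, with 8 such genes summing to 1.16 TPM in pup 1 and 128 TPM in pup 3. In bulk RNA, fewer cells of a type and less RNA per cell cannot be told apart.

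The lysozyme genes are neighbours on mm10 in GENCODE M21, which was matched to the tables by gene identifier. Lyz1 lies at chr10:117287797-117292868 and Lyz2 at chr10:117277331-117282321, both on the minus strand with 4 exons, 5475 bases apart with no annotated gene between. Their coding parts have the same length, 444 bases or 148 codons without the stop, and 422 of those bases are identical. The first 300 coding bases of each are shown because they carry 20 of the 22 coding differences. Whole transcripts differ at 51 aligned bases, so a read can also tell the genes apart outside the coding part. Bases that differ are in capitals.
Lyz1 coding: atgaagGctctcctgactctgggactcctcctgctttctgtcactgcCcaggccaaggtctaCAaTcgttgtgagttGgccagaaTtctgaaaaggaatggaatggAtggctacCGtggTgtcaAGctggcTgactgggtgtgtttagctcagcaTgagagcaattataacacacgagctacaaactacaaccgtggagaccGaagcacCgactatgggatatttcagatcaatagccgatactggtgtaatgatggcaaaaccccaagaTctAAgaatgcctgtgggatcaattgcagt
Lyz2 coding: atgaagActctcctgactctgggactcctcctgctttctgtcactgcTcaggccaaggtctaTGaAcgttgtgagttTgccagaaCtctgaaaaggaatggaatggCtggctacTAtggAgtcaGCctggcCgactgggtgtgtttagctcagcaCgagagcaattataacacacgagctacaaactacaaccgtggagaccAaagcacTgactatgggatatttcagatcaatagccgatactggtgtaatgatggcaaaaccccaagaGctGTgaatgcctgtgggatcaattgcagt
The differences are not spread evenly along these lines, and only a read lying wholly within a run without a capital would give no information on its gene. Every run that ends within these lines is shorter than the windows of 100 bases compared further on. The last run is cut off at base 300, and in full it holds windows of 100 bases that are the same in both genes.

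Upstream of the RefSeq start sites the likeness goes on. In the RefSeq promoter windows of GRCm38.p6, the 130 bases before the start sites are 92.3% identical. The 50 bases nearest the start are the same in both, while the bases from -250 to -131 align at 73.7%, with 12 gap columns left out. In GENCODE M21 the Lyz2 gene reaches to base 117282321. Nearly all of the 50 bases nearest the RefSeq start of Lyz2 thus lie within that gene model. The stretch from -130 to -51 is shown, with its 10 differing bases in capitals, at chr10:117292919-117292998 for Lyz1 and chr10:117282323-117282402 for Lyz2, read on the minus strand.
Lyz1 promoter: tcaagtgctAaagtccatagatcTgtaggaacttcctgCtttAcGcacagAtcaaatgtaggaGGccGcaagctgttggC
Lyz2 promoter: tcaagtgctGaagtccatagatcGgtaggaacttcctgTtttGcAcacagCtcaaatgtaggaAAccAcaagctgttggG

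The granule genes lie at separate places. S100a8 (chr3:90668978-90670035, plus strand, 3 exons) and S100a9 (chr3:90692632-90695721, minus strand, 3 exons) are 22596 bases apart with no annotated gene between. Camp (chr9:109847379-109849617, minus strand, 4 exons), Ngp (chr9:110419747-110423012, plus strand, 4 exons) and Ltf (chr9:111019271-111042767, plus strand, 17 exons) share a stretch of chromosome 9. The gap between Camp and Ngp is 570129 bases and that between Ngp and Ltf 596258 bases. Retnlg is at chr16:48872621-48874496 (plus strand, 4 exons), Lcn2 at chr2:32384633-32388252 (minus strand, 6 exons) and Elane at chr10:79886247-79888215 (plus strand, 5 exons).

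Promoters of the 10 genes, 300 bases from -250 to 50 after the RefSeq start, were searched on both strands for TTGCNNAA, a form of the site bound by C/EBP factors, which drive granulocyte genes. Matches were found in 6 of the 10 members, against 10.8% of all 32851 promoters in the table. These sites are shown for the specific and late granule genes and for Lyz1, with the matched bases, or their reverse complement, in capitals. Coordinates are on GRCm38.p6 and sequences are RefSeq's.
Lcn2, chr2:32387940-32387963 (minus strand): ccttcctgTTGCTCAAccttgcac
Ngp, chr9:110419662-110419685 (+ strand): ctggtttaTTGCCCAAacctcctt
Ngp, chr9:110419789-110419812 (+ strand): ggcagttcTTGGGCAAggcagtct
Ltf, chr9:111019209-111019232 (+ strand): caggcctaTTGGGCAAtagggtgg
S100a9, chr3:90695942-90695965 (minus strand): aggctgtcTTGCTTAAgatttggg
Retnlg, chr16:48872358-48872377 (+ strand): agctTTCTGCAAggcattcc
Lyz1, chr10:117293062-117293085 (minus strand): cccaatctTTAAGCAAtttgaaat
The matches lie at -216 (Lcn2), at -138 and -11 (Ngp), at -75 (Ltf), at -236 (S100a9), at -246 (Retnlg) and at -209 (Lyz1) from the start. The Lyz2 window held no such letters. GAGGAA, a form of the site for PU.1 and other ETS factors, was found in 4 of the 10 (Elane, Lcn2, Ltf and S100a8), against 28.3% of all promoters. Shorter or other forms of that site were not searched. A match describes letters and not binding, which was not measured here.

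Lyz2 had 3232 TPM in pup 1 and 2664 TPM in pup 3, from expected counts of 121693 and 85359. TPM is the deposited level per transcript length, scaled to the same total in each library. Its mean was 2948 ± 401 TPM (SD, n = 2), which placed Lyz2 at rank 26 of all genes in pup 1 and rank 29 in pup 3. Lyz1 had 2874 TPM in pup 1 and 1914 TPM in pup 3, from 108032 and 61226 expected counts, with a mean of 2394 ± 679 TPM and ranks of 29 and 40. Both genes were higher in pup 1, and the range of Lyz1 over the pups overlapped that of Lyz2. Within each library Lyz2 was the higher of the pair.

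The level of Lyz2 over that of Lyz1 was 1.12-fold in pup 1 and 1.39-fold in pup 3, a mean log2 ratio of 0.32 ± 0.22 (SD, n = 2). An exact sign-flip test over 2 pups cannot go below a 2-sided p of 0.5, so no p-value is given for any level or difference here. Of the counts of both genes together, Lyz1 held 47.0% in pup 1 (95% Wilson interval 46.8 to 47.2%) and 41.8% in pup 3 (41.5 to 42.0%). These intervals do not overlap, but they cover counting error only, and how reads shared by the genes were split is a further error that they do not hold. The standard deviation of the count given by the deposited model was 29.57 in pup 1 and 23.02 in pup 3 for either gene, and 0 for each of the other 8. Posterior mean TPM gave the same log2 ratio of 0.32.

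The sequences show how much room that split had. Across whole transcripts of the annotation, Lyz1-201 (1263 bases) and Lyz2-201 (1316 bases) had 1211 identical bases of 1262 aligned (96.0%). The deposited lengths were 1264 bases for Lyz1 and 1266 bases for Lyz2. The Lyz2-201 compared here is thus longer than the transcript whose reads were split. Effective length in the tables was length minus 99, as for 100-base fragments or reads, so windows of 100 bases were compared. Of the 1164 windows of Lyz1, 24 (2.06%) recurred without a change in Lyz2, and the median window was 3 edits from its best match there. Of the 1217 windows of Lyz2, 24 (1.97%) recurred in Lyz1. Of these exact copies, 19 of each gene lay within the coding part and 5 within the noncoding part. None of the other 8 members had a 100-base window that recurs exactly in a transcript of another gene.

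**Figure D1:**
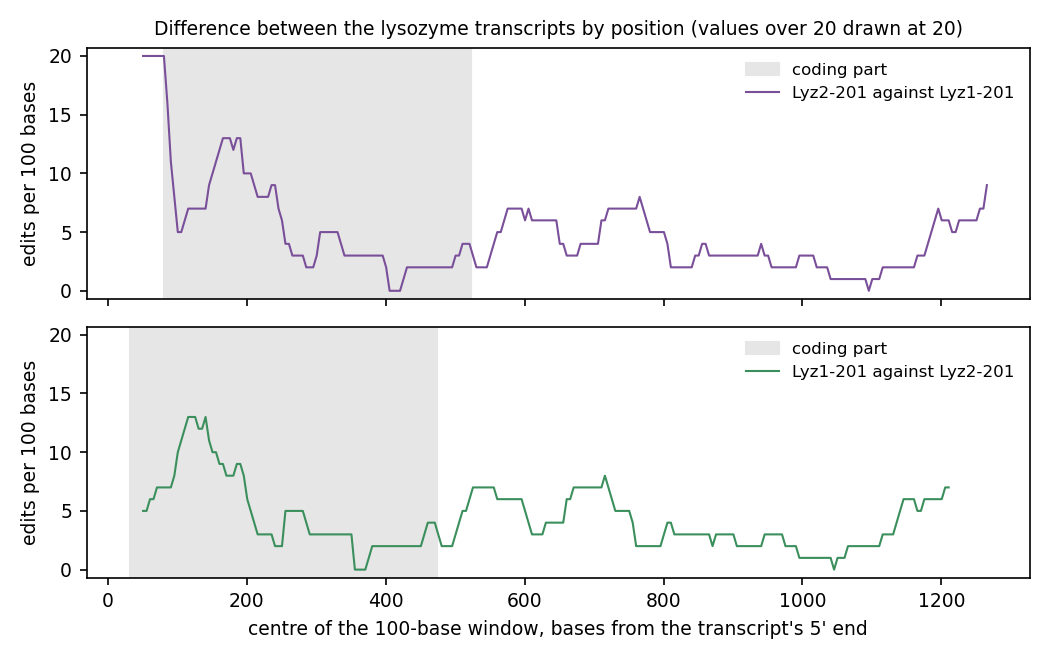
Edits between each 100-base window of a lysozyme transcript and its best match in the other (y axis, number of edits) by the window's centre (x axis, bases from the transcript's 5′ end), with the coding part shaded. The lines touch 0 only in the later stretch of the coding part, short of its end, and late in the 3′ part. In each transcript 24 windows are exact copies. The highest values, up to 45 edits at the 5′ end of Lyz2, are cut off near the top of the axis.

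Lyz1 and Lyz2 together made up 6105 TPM in pup 1 and 4578 TPM in pup 3, which is 0.611% and 0.458% of all TPM. That was 7.22 times the summed TPM of the other 8 genes in pup 1 and 4.71 times in pup 3. Of the other 8 genes of the lysozyme family, 7 were under TPM 1 in both pups (Lyzl1, Lyzl4, Lyzl6, Spaca3, Spaca5, Lyg1 and Lyg2), 4 of them listed at 0. The exception, Lalba, encodes alpha-lactalbumin of milk and is taken up with the milk genes further on.

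S100a8 had 381 TPM in pup 1 and 379 TPM in pup 3 (3599 and 3048 counts), and its mean was 380 ± 1.26 TPM. S100a8 and S100a9 form calprotectin, a calcium and zinc binding complex that is the main cytosolic protein of neutrophils. S100a9 had 182 TPM in pup 1 and 190 TPM in pup 3 (2435 and 2155 counts), with a mean of 186 ± 5.23 TPM. The levels of both genes were nearly equal in the pups. S100a8 stood 2.09-fold above S100a9 in pup 1 and 2.00-fold in pup 3, a mean log2 ratio of 1.03 ± 0.05. The ratio of TPM leans on the short transcript of S100a8 (392 bases in the tables), and the log2 ratio of expected counts was 0.53.

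Retnlg, which encodes resistin-like gamma, a secreted protein of neutrophils, had 43.96 TPM in pup 1 and 35.35 TPM in pup 3 (722 and 494 counts). Its mean was 39.7 ± 6.09 TPM. Its relative Retnla, expressed by airway epithelium and macrophages, was 23.0 times as high in pup 1 and 17.4 times in pup 3, with 1011 TPM in pup 1 and 614 TPM in pup 3. Retnlb and Retn were under TPM 1 in both pups.

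Among the specific granule genes, Lcn2 was by far the most abundant. It encodes lipocalin 2, which binds bacterial siderophores and is made by epithelial cells as well as by neutrophils. Lcn2 had 196 TPM in pup 1 and 314 TPM in pup 3 (5174 and 7052 counts), with a mean of 255 ± 83.4 TPM. Ngp, the neutrophilic granule protein of the cystatin fold, had 22.89 TPM in pup 1 and 28.72 TPM in pup 3 (783 and 836 counts), a mean of 25.8 ± 4.12 TPM. Camp, the precursor of the cathelicidin antimicrobial peptide, had 11.71 TPM in pup 1 and 15.22 TPM in pup 3 (189 and 209 counts), a mean of 13.5 ± 2.48 TPM. Ltf, lactoferrin, which binds iron, had 7.43 TPM in pup 1 and 10.38 TPM in pup 3 (634 and 753 counts), a mean of 8.91 ± 2.09 TPM. All 4 were lower in pup 1. Camp and Ngp encode related proteins, and their coding parts had 305 identical bases of 455 aligned (67.0%), with 107 gap columns left out. Ngp over Camp was nearly the same in the pups, at 1.95-fold in pup 1 and 1.89-fold in pup 3.

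Elane, neutrophil elastase, is the primary granule gene of the set. It had 0.87 TPM in pup 1 and 0.09 TPM in pup 3, from 23 and 2 expected counts. A count of 0 would allow 3 counts, or 0.0711 CPM in pup 1 and 0.0810 CPM in pup 3. The 2 counts of pup 3 lie under that floor, so the level there is poorly measured.

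**Figure D2:**
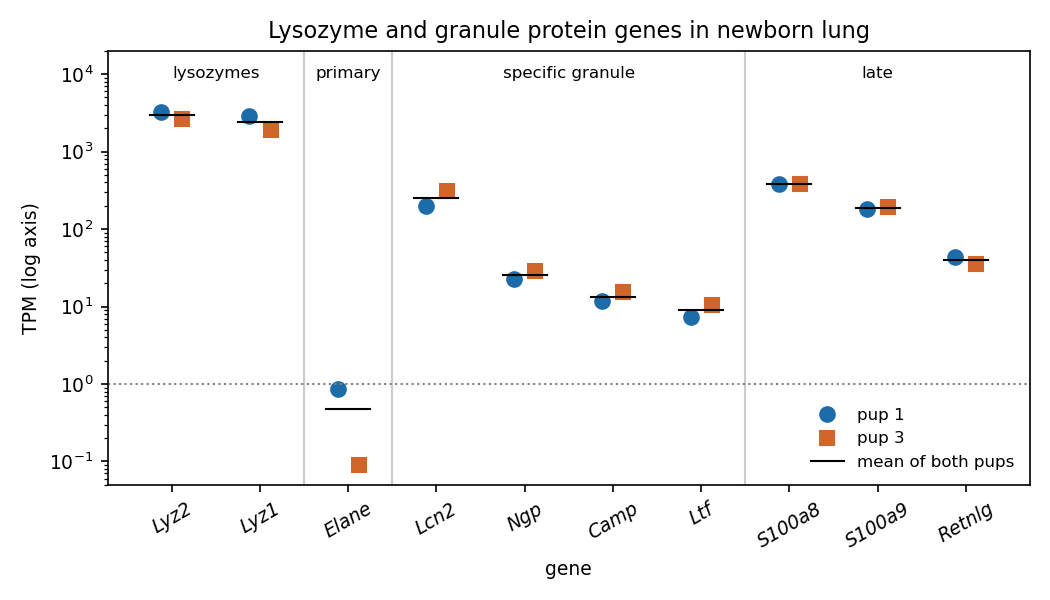
TPM on a log axis for each of the 10 genes, in pup 1 (circles) and pup 3 (squares), with the mean as a line. The lysozymes lie at 1914 TPM or more, the specific and late granule genes between 7.43 and 381 TPM, and Elane below the dotted line at TPM 1.

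By mean TPM the order was Lyz2, Lyz1, S100a8, Lcn2, S100a9, Retnlg, Ngp, Camp, Ltf and Elane, and it was the same in each pup. Of neighbours in this order, the ranges over the pups overlapped only for Lyz2 and Lyz1. The narrowest step between neighbours that did not overlap was that of Lcn2 over S100a9, with means 1.37-fold apart.

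Most of these genes have 1 transcript in the tables. Lcn2 has 6 and S100a9 has 2, and the other 8 genes have 1 each. Lcn2-201, the main coding form, held 99.46% of Lcn2 in pup 1 and 98.09% in pup 3, a mean of 98.8 ± 0.969%. The 4 noncoding models of Lcn2, 3 of them annotated as retained introns, took 31.51 counts in pup 1 and 143.42 counts in pup 3. Those counts were 0.609% of the gene's counts in pup 1 and 2.03% in pup 3. S100a9-201 held 88.74% of S100a9 in pup 1 and 91.03% in pup 3, a mean of 89.9 ± 1.62%, and a second coding transcript held the rest.

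Early and late granule genes were compared within each library by subtracting their means of log2(TPM + 1). The late genes S100a8, S100a9 and Retnlg stood above the specific granule genes Lcn2, Ngp, Camp and Ltf by 2.46 in pup 1 and 1.93 in pup 3. The mean difference was 2.19 ± 0.37 (SD, n = 2), or 4.58-fold. It was 3.20 without Lcn2, an alternative chosen after the data were seen, and 1.03 when TPM were summed in place of averaged logs. The specific granule genes stood above Elane by 3.83 in pup 1 and 5.06 in pup 3, a mean of 4.44 ± 0.86. Summed TPM were 607 in pup 1 and 604 in pup 3 for the late genes, and 238 in pup 1 and 368 in pup 3 for the specific granule genes. The order late over specific over primary was the same in both pups.

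Longer lists again gave low levels of primary granule genes. Of 5 primary granule genes, only Prtn3, proteinase 3, reached TPM 1 in both pups, at 2.15 TPM in pup 1 and 1.95 TPM in pup 3. Mpo, myeloperoxidase, had 0.61 TPM in pup 1 and 0.28 TPM in pup 3, Ctsg, cathepsin G, had 0.27 and 0.16 TPM in these pups, and Ms4a3 had 0.04 TPM in pup 1 and was listed at 0 in pup 3. The list summed to 3.94 TPM in pup 1 and 2.48 TPM in pup 3. All 8 specific granule genes reached TPM 1, and they summed to 307 TPM in pup 1 and 434 TPM in pup 3. Next to Lcn2 came Pglyrp1, a peptidoglycan recognition protein, at 44.3 TPM in pup 1 and 40.4 TPM in pup 3. Of 11 genes of mature neutrophils, 10 reached TPM 1, and they summed to 636 TPM in pup 1 and 643 TPM in pup 3. Ly6g, the surface marker of mouse neutrophils, was under TPM 1, at 0.60 TPM in pup 1 and 0.87 TPM in pup 3.

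The mature list stood above the primary list by 2.61 in pup 1 and 3.07 in pup 3, a mean of 2.84 ± 0.33 or 7.16-fold. Against the specific granule list its mean log2(TPM + 1) was lower, with differences of -0.78 in pup 1 and -0.85 in pup 3 (mean -0.81 ± 0.05). This second difference depends on how genes are weighed, since summed TPM put the mature list above, by 0.81 on the log2 scale, with S100a8 and S100a9 holding most of the sum. The longer lists share members with the 10 genes and are not independent of them.

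Factors that drive granule genes in the bone marrow were split. Cebpb and Cebpd, C/EBP factors expressed in many lung cells, averaged 102 ± 9.44 TPM and 101 ± 1.05 TPM, and Cebpa 24.2 ± 0.665 TPM. Gfi1 and Cebpe, needed for late granulocyte development, and Csf3, the granulocyte growth factor, were each under TPM 1 in both pups. Of inhibitors of elastase, Slpi, a secreted inhibitor of airway epithelium, had 70.4 TPM in pup 1 and 93.9 TPM in pup 3, Serpinb1a 24.9 and 24.1 TPM in these pups, and A2m 1.84 TPM in each. All 5 genes of the Serpina1 group, alpha-1 antitrypsin, were under TPM 1, and as near-identical copies their separate values are uncertain. Among receptors for granule proteins, Ager, which binds S100 proteins and is abundant on type 1 alveolar cells, had 3328 TPM in pup 1 and 3579 TPM in pup 3. Lrp1, a receptor that takes up lactoferrin, averaged 63.9 ± 2.79 TPM and Fpr2, a formyl peptide receptor that binds cathelicidin, 12.4 ± 1.77 TPM. S100a8 and S100a9 were not the leading genes of their family, whose highest members were S100a11 (2179 ± 46.1 TPM), S100g (1060 ± 25.9 TPM) and S100a6 (840 ± 39.8 TPM).

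Differences between the pups were taken as log2 ratios of expected counts, pup 1 over pup 3, after TMM scaling. A gene was called where the ratio reached 2-fold, both libraries together held 50 counts and the 95% exact interval of the ratio left out 1. With 1 library on each side this is a rule of size and not a test. By it 1.4% of 15790 tested genes were called, 0.659% higher in pup 1 and 0.741% higher in pup 3 (104 and 117 genes). Scaling by the ERCC spike-ins moved every ratio up by 0.14 and turned that split into 161 and 82 genes. None of the 9 tested members was called, and Elane had too few counts to be tested. The median log2 ratio was 0.03 over the 9 members, beside 0.01 over all tested genes.

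Among the 9 tested members, Lyz1 and Lcn2 differed most. Lyz1 was 1.59-fold higher in pup 1 (95% interval 1.58 to 1.61, log2 ratio 0.67), and Lyz2 was 1.29-fold higher (1.28 to 1.30, log2 ratio 0.36). Lcn2 was 1.51-fold higher in pup 3 (1.46 to 1.57, log2 ratio -0.59). These intervals hold counting error and not the spread between animals. Of 3501 genes with at least 5000 counts, the central 68% had log2 ratios from -0.13 to 0.18, and 0.628% differed by as much as Lyz1, 0.943% as much as Lcn2 and 4.17% as much as Lyz2, in either direction. S100a8 (0.09) and S100a9 (0.03) lay within that central range, and the sign of S100a9 turned with library totals or TPM in place of TMM.

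The other specific granule genes lay on the side of Lcn2. Their log2 ratios were -0.24 for Ngp, -0.29 for Camp and -0.40 for Ltf, with 95% intervals of the fold in pup 3 over pup 1 of 1.07 to 1.31, 1.00 to 1.50 and 1.18 to 1.47. Retnlg had a log2 ratio of 0.40. Elane had 10.4 times the scaled count in pup 1, with an interval of 2.56 to 90.8, on 25 counts in all. Mpo was the 1 called gene of 2 tested in the primary granule list, beside the background of 0.659%, and was higher in pup 1 with a log2 ratio of 1.02 on 41 counts in pup 1 and 18 counts in pup 3. Over the longer specific granule list none of 8 genes was called, with 3 ratios above 0 and 5 below (median -0.27). Of the 10 tested genes of the mature list, 4 had ratios above 0 and 6 below (median -0.05), so the positive ratios of the 3 late members were not shared by that list.

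**Figure D3:**
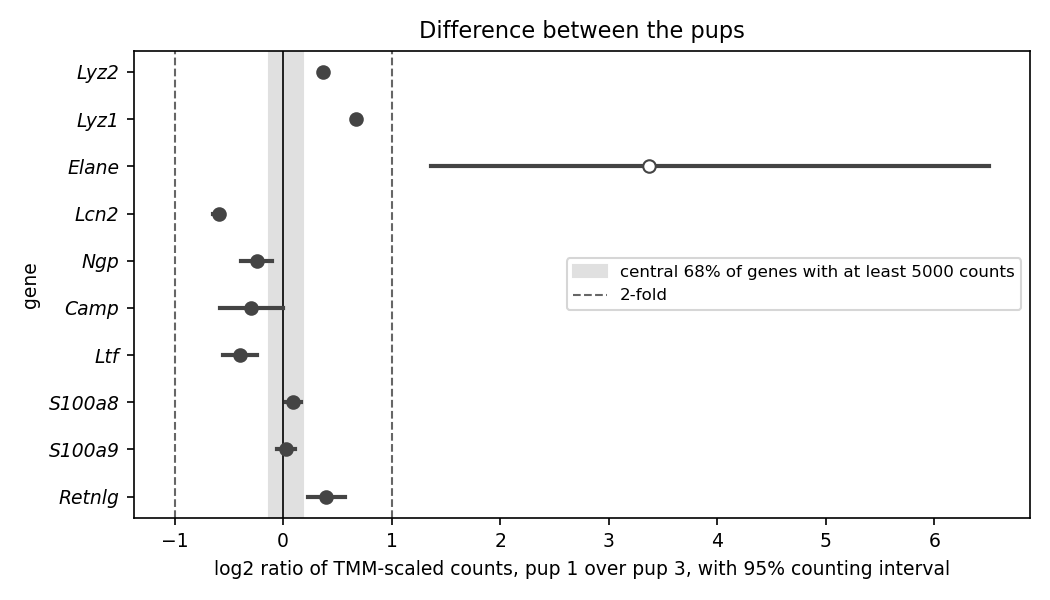
Log2 ratio of TMM-scaled counts, pup 1 over pup 3, with its 95% counting interval (bars) for each of the 10 genes, the central 68% of genes with at least 5000 counts shaded and 2-fold as dashed lines. Lyz1 (0.67) and Lcn2 (-0.59) lie outside the shading on opposite sides, no tested gene reaches 2-fold, and Elane (open circle, not tested) has an interval that spans 2.56- to 90.8-fold.

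Genes that call neutrophils to tissue included some with large differences between the pups. Of 8 recruitment genes, 4 were called, all higher in pup 3, beside the background of 0.741%. Cxcl1, a chemokine for neutrophils, had 1.81 TPM in pup 1 and 26.5 TPM in pup 3 (50 and 622 counts), Cxcl5 had 0.22 and 8.29 TPM in these pups, Cxcl2 0.29 and 6.75 TPM, and Cxcl3 0.37 and 2.20 TPM. Cxcl15, the abundant chemokine of lung epithelium, was not called, with 481 TPM in pup 1 and 538 TPM in pup 3. Il1b, an inflammatory cytokine, was the 1 called gene of 10 tested in the mature neutrophil list (177 counts in pup 1 and 370 counts in pup 3, log2 ratio -1.21). Cd14, a receptor for bacterial lipopolysaccharide, was the 1 called gene of 11 tested in the macrophage list (29.3 TPM in pup 1 and 89.4 TPM in pup 3). Both were higher in pup 3, beside the same background of 0.741%. The part of these genes in the Lcn2 difference was not tested.

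**Figure D4:**
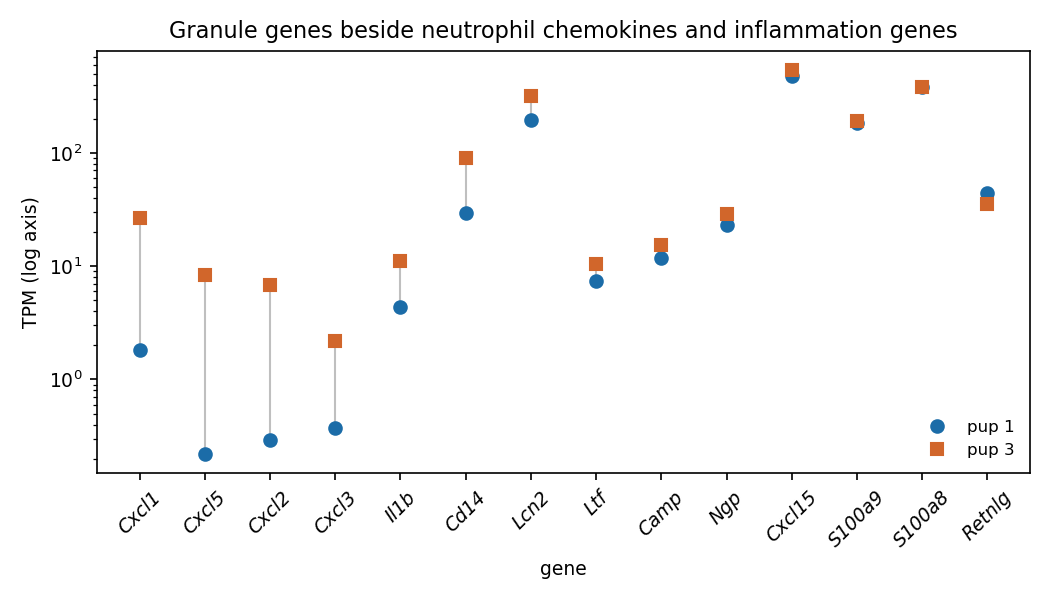
TPM on a log axis in pup 1 (circles) and pup 3 (squares) for chemokines and inflammation genes beside 7 granule genes. Cxcl1 (1.81 and 26.5 TPM in pups 1 and 3) and Cd14 (29.3 and 89.4 TPM) are far apart, Lcn2 (196 and 314 TPM) less so, and S100a8 and S100a9 nearly coincide.

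The milk protein genes also differed. The 8 milk genes held 31 counts in pup 1 and 2855 counts in pup 3, all 7 that could be tested were called higher in pup 3 beside the background of 0.741%, and Lalba had 6 counts in pup 1 and 54 in pup 3. Lactoferrin is also made by the mammary gland. The part of the milk transcripts in the lower Ltf and Lcn2 values of pup 1 was not tested, and with 1 library on each side it cannot be told apart from a difference in the lungs.

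Markers of other cells that can make lysozyme are given as sums and medians. The 10 markers of alveolar type 2 cells, led by Sftpc, were all detected, summed to 86436 TPM in pup 1 and 77705 TPM in pup 3 and had a median log2 ratio of 0.10. Of 11 macrophage markers 10 were detected, summing to 346 TPM in pup 1 and 376 TPM in pup 3 with a median of 0.11, and the leading gene Ear2 had 128 TPM in pup 1 and 105 TPM in pup 3. Without Cd14, left out after its values were seen, the other 10 macrophage markers summed to 317 TPM in pup 1 and 286 TPM in pup 3, so the order of the pups turned. All 6 monocyte markers were detected and summed to 178 TPM in pup 1 and 161 TPM in pup 3, with a median of -0.02. Of these 6 markers, 3 had log2 ratios above 0 and 3 below, from -0.32 to 0.70. The largest was that of the monocyte surface gene Ly6c2, with 41.9 TPM in pup 1 and 26.9 TPM in pup 3. The more abundant markers Ace and Plac8 had log2 ratios of 0.06 and 0.28. Airway secretory markers, of cells that can make Lcn2, summed to 28826 TPM in pup 1 and 30517 TPM in pup 3. None of the 10 type 2, 6 monocyte and 7 airway markers was called, where the background of 1.4% would also leave few or none. The part of any of these cells in the lysozyme or Lcn2 difference was not tested. Red cell genes, which mark blood in the tissue, summed to 55562 TPM in pup 1 and 66580 TPM in pup 3. Markers of eosinophils, basophils and mast cells summed to 35.3 TPM in pup 1 and 32.9 TPM in pup 3. The eosinophil genes Prg2 and Epx were below 0.1 TPM in both pups. Ear1, among the same markers, stood higher, with 10.98 TPM in pup 1 and 12.53 TPM in pup 3. Of these markers, 1 of 5 tested was called, beside the background of 0.659% higher in pup 1. It was Mcpt4, a mast cell protease, with 1.46 TPM in pup 1 and 0.53 TPM in pup 3 (42 and 13 counts).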

How the data were processed

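Total RNA of newborn lung was measured in 2 libraries, with 42189536 expected counts over genes in pup 1 and 37026165 in pup 3. The expected counts in the deposited tables are estimates per gene and transcript, not always whole, per the file headers. TPM in the deposited tables is per effective length with equal totals in every library, and the deposited FPKM, used as an alternative, is per length and sequencing depth. The deposited isoform percent gives the share of each transcript in its gene. The deposited posterior values, such as the standard deviation of a count, are used as scores of the authors' model. Assembly mm10 and annotation M4 are named in the deposited text files. The aligner, the counter and the strand setting are, for these tables, not given in the sources used here.

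After rounding, counts were normalised by TMM in edgeR 4.0.16 under R 4.3.3, with DESeq2 1.42.0 size factors as an alternative, and log2 ratios carry a prior count of 0.5. Pairs of lists were compared on log2(TPM + 1). Intervals of 95% and the floor of 3 counts hold counting error only. They treat reads as independent, but reads that carry no molecular identifier may come from 1 molecule, so the intervals may be too narrow. No model across genes was tested, as there is 1 group, and any SD measures the spread between these 2 libraries. Coordinates and transcripts came from GENCODE M21 and promoters from RefSeq (GRCm38.p6, all 10 genes matched). Edits were counted with edlib, and pairs were aligned with biopython 1.88. The members and all 17 lists were chosen with earlier results of these data known. All 10 members are named, and from each other list the 3 genes with the highest mean TPM, called genes and genes under TPM 1 in both pups may be named. Dropping Lcn2 or Cd14, isoform alternatives and posterior levels were added after the data were seen.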

Additional observations from a re-analysis of the deposited data

How the results depend on the processing

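No paired analysis was possible because the 2 pups form 1 group. With 1 pup left out, late minus specific granule genes ranged from 1.93 to 2.46 (log2), specific genes minus Elane from 3.83 to 5.06, the mature minus the primary list from 2.61 to 3.07, the mature minus the specific list from -0.85 to -0.78, Lyz2 over Lyz1 from 0.17 to 0.48, S100a8 over S100a9 from 1.00 to 1.06, Lcn2-201 from 98.09 to 99.46% and S100a9-201 from 88.74 to 91.03%. Summed TPM gave 1.03, 10.05, 7.68 and 0.81 for the 4 list differences in that order, so that the last reversed. A pseudocount of 0.1 gave 6.11 for specific genes minus Elane, 4.25 for mature minus primary and -1.04 for mature minus specific. Leaving out genes under TPM 1 gave 2.09 for mature minus primary and -0.55 for mature minus specific, and no value for Elane, which it removes. Without Lcn2 the late genes stood 3.20 above the specific ones, the specific genes 3.44 above Elane and the mature list at -0.28 to the specific one. FPKM gave -0.76 for that last difference. The order late over specific over primary members held under every setting run. Expected counts put S100a8 at 0.53 over S100a9, and all settings kept Lyz2 above Lyz1. The median log2 ratio of members was 0.17 with ERCC scaling and -0.057 with TPM + 1. Without a minimum count 1 member, Elane, and 701 genes were called, and with TPM + 1 the rule called 85 genes. Of 60 alternative member ratios, 14 moved beyond their interval, and S100a9 changed sign with library totals and with TPM + 1. The causes of these shifts were not tested. Depth limits Elane and the other primary granule genes, and 2 libraries limit every difference between the pups.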
